A study of Mus musculus with 16 samples.

Results

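The CpG-poor promoters described here are regions of open chromatin at the start of 1 protein-coding gene, in DNA with little CpG. They were found by joining touching or overlapping ATAC-seq peaks of 8 libraries into 16566 regions. Of these, 8115 had their centre between 1000 bp upstream and 100 bp downstream of the start site of a protein-coding transcript (GRCm38, GENCODE). A further 1075 of them lay between genes that start on both strands and were left out, which leaves 7040 single coding promoters. The 1445 CpG-poor ones (20.5% of the single coding promoters, 8.72% of all regions) had GC content under 50% or a CpG observed/expected ratio under 0.6 in the 500 bp either side of their centre, and belonged to 1413 genes. The other 5595, called CpG-rich here, serve as the comparison. No measured change between genotypes entered the choice, but a region had to hold a peak in at least 1 library.

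The libraries came from B cells of CD23-Cre Brg1fl/+ mice, which lose 1 allele of Smarca4 (the gene of Brg1, the ATPase of the SWI/SNF chromatin remodelling complex), and of CD23-Cre Brg1fl/fl mice, which lose both. There were 4 libraries of each genotype, so Cre was present on both sides of the comparison. It was driven by the CD23 promoter, which acts as B cells mature in the spleen, and the animals were 7 to 14 weeks old. Splenic B cells were isolated by magnetic depletion and activated with LPS at 10 µg/mL and IL-4 at 20 ng/mL for 72 h by the sample labels or 96 h by the series text, and 50000 cells went into each library. How many mice stand behind the 4 libraries of a genotype is not given, so the p-values below measure the spread between libraries, which may be partly technical. In each genotype the naming of the peak lists sets libraries 1 and 2 apart from 3 and 4, without saying what they share. Averaged in that way, the libraries leave 2 against 2, where the exact permutation test cannot give p under 0.333.

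CpG-rich promoters lie in CpG islands and serve mostly genes that are active in every cell, whereas promoters poor in CpG are typical of genes restricted to 1 tissue or switched on by a stimulus. ATAC-seq reads them out through a transposase that inserts where nucleosomes are absent. In macrophages given LPS, genes with CpG-poor promoters are the ones known to depend most on SWI/SNF remodelling, which is the question the comparison of Brg1fl/fl with Brg1fl/+ libraries addresses in B cells.

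The sequences shown first come from single promoters described below, each printed from up to 50 bases either side of the highest point of its best peak and ending upstream of the start site, 5′ to 3′ on the strand of the gene (GRCm38). Nfe2l1, Batf and Fas had peaks in all 4 Brg1fl/+ libraries and in at most 1 Brg1fl/fl library, and Aars was open in all 8 and lower in Brg1fl/fl. With lists of equal length Batf was left with a peak in 1 and 0 libraries, and the call at Aars was lost when any 1 of 7 libraries was left out. Capitals mark CCAAT boxes in Nfe2l1 and Aars (read on the other strand as ATTGG), the RUNX motif TGTGGT in Batf and the Sp1 GC box GGGCGG in Fas.
Nfe2l1 (chr11:96824166-96824266, minus strand): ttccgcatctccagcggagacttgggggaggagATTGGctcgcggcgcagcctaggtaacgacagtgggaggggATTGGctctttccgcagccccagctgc
Batf (chr12:85686519-85686619, plus strand): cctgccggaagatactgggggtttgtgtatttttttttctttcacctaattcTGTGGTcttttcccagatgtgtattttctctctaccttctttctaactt
Fas (chr19:34290557-34290657, plus strand): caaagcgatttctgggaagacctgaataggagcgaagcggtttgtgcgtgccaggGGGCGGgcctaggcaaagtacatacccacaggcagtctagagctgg
Aars (chr8:111033788-111033888, plus strand): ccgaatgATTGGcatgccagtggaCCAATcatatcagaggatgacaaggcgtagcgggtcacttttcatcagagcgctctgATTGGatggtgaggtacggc

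The next set is of interferon-induced genes, which were the list with the most CpG-poor promoters, and capitals mark matches to the interferon-stimulated response element (ISRE). Usp18 removes the ubiquitin-like protein ISG15, Rsad2 encodes viperin, and Trim30a is an interferon-induced TRIM protein. These 3 were chosen for their motif after their values were seen. Each rests on 1 library, Usp18 and Trim30a on Brg1fl/+ library 1 and Rsad2 on Brg1fl/+ library 2.
Usp18 (chr6:121245792-121245892, plus strand): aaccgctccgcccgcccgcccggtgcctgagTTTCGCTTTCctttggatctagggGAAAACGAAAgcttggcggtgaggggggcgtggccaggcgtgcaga
Rsad2 (chr12:26456488-26456588, minus strand): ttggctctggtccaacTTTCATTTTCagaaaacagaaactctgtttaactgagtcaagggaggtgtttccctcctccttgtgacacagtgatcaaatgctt
Trim30a (chr7:104465203-104465303, minus strand): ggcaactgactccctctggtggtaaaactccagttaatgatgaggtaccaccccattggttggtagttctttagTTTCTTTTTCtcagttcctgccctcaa

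The last set is of genes of B cell activation. Capitals mark the TATA box TATAAA in Fcer2a, which encodes CD23, and in Cd69, an early activation antigen, and NF-kB motifs in Cd40, the receptor for T cell help.
Fcer2a (chr8:3694191-3694291, minus strand): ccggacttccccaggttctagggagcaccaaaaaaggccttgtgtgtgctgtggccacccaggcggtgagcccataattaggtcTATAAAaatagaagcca
Cd69 (chr6:129275380-129275480, minus strand): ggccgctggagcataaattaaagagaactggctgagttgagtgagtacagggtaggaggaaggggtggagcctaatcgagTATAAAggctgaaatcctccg
Cd40 (chr2:165055531-165055626, plus strand): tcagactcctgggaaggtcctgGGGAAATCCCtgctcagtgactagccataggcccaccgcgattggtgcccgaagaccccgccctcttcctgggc

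Of the 1445 regions, 1327 met the CpG criterion, 406 the GC criterion and 288 both. Their median GC content was 53.8% and their median CpG ratio 0.506, against 62.7% and 0.798 at CpG-rich promoters, differences that the rule itself sets. They were narrower, with a median width of 434 bp against 629 bp. The centre stood at a median of 28 bp upstream of the start site (14 bp at CpG-rich promoters), 88.4% covered the start site (95.2%), and the median share of repeat sequence was 5.61% (3.98%). At the GC limit, the promoters of the histone gene Hist1h4d and the Mediator subunit gene Med6 fell just inside at 49.9%, with peaks in 3 and 3 and in 4 and 3 libraries of Brg1fl/+ and Brg1fl/fl, and those of Nup43 and Ranbp6 just outside at 50%, with peaks in 0 and 1 and in 1 and 0. At the CpG limit, Bbs7 at 0.599865 and Dffa at 0.59952 fell just inside, both with peaks in 3 Brg1fl/+ and 0 Brg1fl/fl libraries, and Exoc3 at 0.60006 and St3gal2 at 0.600185 just outside, with peaks in 2 and 3 and in 3 and 3.

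Several facts of the whole series touch these promoters. The authors called peaks in each library alone, and the lists held 14614, 11283, 6372 and 7632 peaks in Brg1fl/+ and 9216, 6271, 8500 and 8605 in Brg1fl/fl, so Brg1fl/+ library 1 weighs most in the combined regions. The shortest peak of a list, which MACS2 by default ties to the fragment size it estimates, was 195 to 204 bp in Brg1fl/+ and 231 to 243 bp in Brg1fl/fl (two-sided exact permutation test, p = 0.0286, the smallest that 4 against 4 libraries allow). Its part in the results on peak height, width and detection was not tested. The Smarca4 promoter (chr9:21615736-21616576) was CpG-rich and held a peak in all 8 libraries, which is no check of the deletion, since a peak list does not show whether an exon is missing. Promoter peaks were found at 3 of 7 B cell marker genes (Ms4a1, Pax5 and, in 1 library, Cd79a) and at 0 of 5 T cell, 0 of 2 NK cell, 0 of 4 myeloid and 0 of 3 erythroid marker genes. A peak list holds no read total, so depth is unknown and a missing peak means only that none was called.

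Few CpG-poor promoters had a peak called in every library. A peak was found in all 8 libraries at 158 of them (10.9%), against 2828 CpG-rich promoters (50.5%). At the other end, 479 (33.1%) had a peak in a single library, 417 of them in Brg1fl/+ library 1, while only 7.54% of CpG-rich promoters rested on 1 library. Much of the group is therefore known from the longest list alone.

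**Figure D1:**
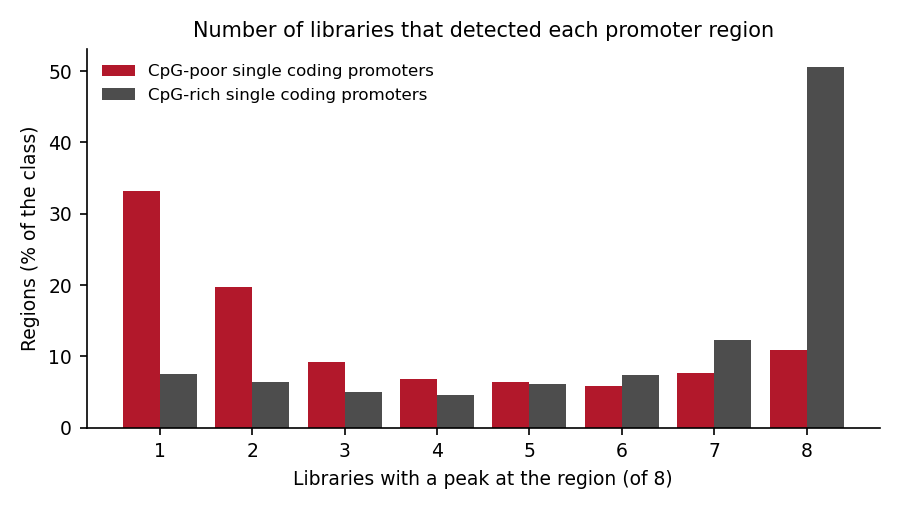
Share of each promoter class (y axis, %) by the number of the 8 libraries with a peak at the region (x axis), red for CpG-poor and grey for CpG-rich single coding promoters. CpG-poor promoters pile up at 1 library (33.1%) and CpG-rich ones at all 8 (50.5%).

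The 10 CpG-poor promoters that ranked best in their worst library were mt-Co1, Cbwd1, Per1, Chd2, Rab5b, Spg11, Wdr19, Mgat1, Dusp2 and Fbrs. The first lies on mitochondrial DNA, which carries no nucleosomes, so its fold of 1.54 to 1.96 over background says nothing about chromatin. Among nuclear promoters, Cbwd1 had the best worst rank, at 19.3, 20.2, 18.2 and 19.3 fold over background in Brg1fl/+ and 19.3, 16.3, 18.5 and 19.3 in Brg1fl/fl. Per1, a core repressor of the circadian clock, stood at 13.1, 13.6, 13.9 and 14.8 against 14.6, 12.0, 14.9 and 14.2. The chromatin remodeller gene Chd2 stood at 18.1, 18.6, 16.8 and 16.8 against 19.3, 13.7, 18.3 and 17.1. In all 3 the genotypes overlapped. None of the 9 nuclear promoters was called different by limma, with adjusted p from 0.111 for Mgat1, which starts complex N-glycan synthesis (log2 difference 0.30 ± 0.12, SE), to 0.767 for Dusp2, a phosphatase of MAP kinases (0.08 ± 0.14).

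The question of whether CpG-poor promoters depend more on Brg1 was asked first through detection. A peak was found at 94.8%, 64.9%, 23.9% and 32.5% of them in the Brg1fl/+ libraries and at 35.9%, 17.7%, 32.6% and 34.5% in the Brg1fl/fl libraries. Brg1fl/+ libraries 3 and 4 lay within the Brg1fl/fl range, whereas libraries 1 and 2 lay far above it. The means were 54.0% ± 32.4 and 30.2% ± 8.42 (SD, n = 4 each), and the difference of -23.9 percentage points was no larger than the scatter of the libraries (two-sided exact permutation test, p = 0.286). It was -14.2 points without Brg1fl/+ library 1 and -34.0 without Brg1fl/+ library 3, the ends of the range over libraries left out. CpG-rich promoters were detected at 80.6% ± 16.5 and 74.3% ± 9.37 (p = 0.514, same exact permutation test).

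Because list length moves both classes, the detected share of CpG-poor minus that of CpG-rich promoters was taken within each library. This gap was -3.30, -25.3, -38.1 and -39.7 percentage points in Brg1fl/+ and -44.0, -42.6, -45.2 and -44.6 in Brg1fl/fl. All 4 Brg1fl/fl libraries had a wider gap than any Brg1fl/+ library, though libraries 3 and 4 of Brg1fl/+ came close. On average the gap was 17.5 points wider in Brg1fl/fl (-44.1 ± 1.12 against -26.6 ± 16.8, SD, n = 4 each, two-sided exact permutation test, p = 0.0286). The regions themselves bear on this test, since 417 of the 1445 were regions through a peak in Brg1fl/+ library 1 alone, which brings the gap of that library close to 0, so its p is no support by itself. Without that library and with the regions joined anew the difference was -13.5 (exact permutation test over 3 against 4 libraries, p = 0.0286, the smallest it allows), again over regions that the remaining lists define. With any 1 Brg1fl/fl library left out and the regions joined anew, the difference was -18.0 to -17.1 and the exact permutation test gave p = 0.0857 to 0.114.

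The lists were then made equal in length by keeping the best 6271 peaks of each, which left 612 CpG-poor promoters among 9006 regions. These were detected at 67.0%, 64.9%, 55.2% and 60.9% in Brg1fl/+ and at 49.3%, 41.7%, 48.4% and 51.3% in Brg1fl/fl, so that every Brg1fl/fl library was below every Brg1fl/+ library. The means of 62.0% ± 5.17 and 47.7% ± 4.19 differed by -14.3 points (two-sided exact permutation test, n = 4 each, p = 0.0286), and CpG-rich promoters stood at 80.1% ± 2.67 and 79.8% ± 3.71 (p = 0.743). The gap between the classes was -18.1 ± 2.65 in Brg1fl/+ and -32.1 ± 1.35 in Brg1fl/fl (difference -14.02, exact permutation test, n = 4 each, p = 0.0286). The 612 were regions only through peaks of these same shortened lists, so the p-values of detection and gap are again no support by themselves. CpG-poor promoters made up 6.08% ± 0.50 of the peaks in Brg1fl/+ and 4.68% ± 0.39 in Brg1fl/fl (p = 0.0286, same exact permutation test). In the lists as deposited that share was 7.35% ± 1.83 against 5.30% ± 0.78 (p = 0.114, same exact permutation test).

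**Figure D2:**
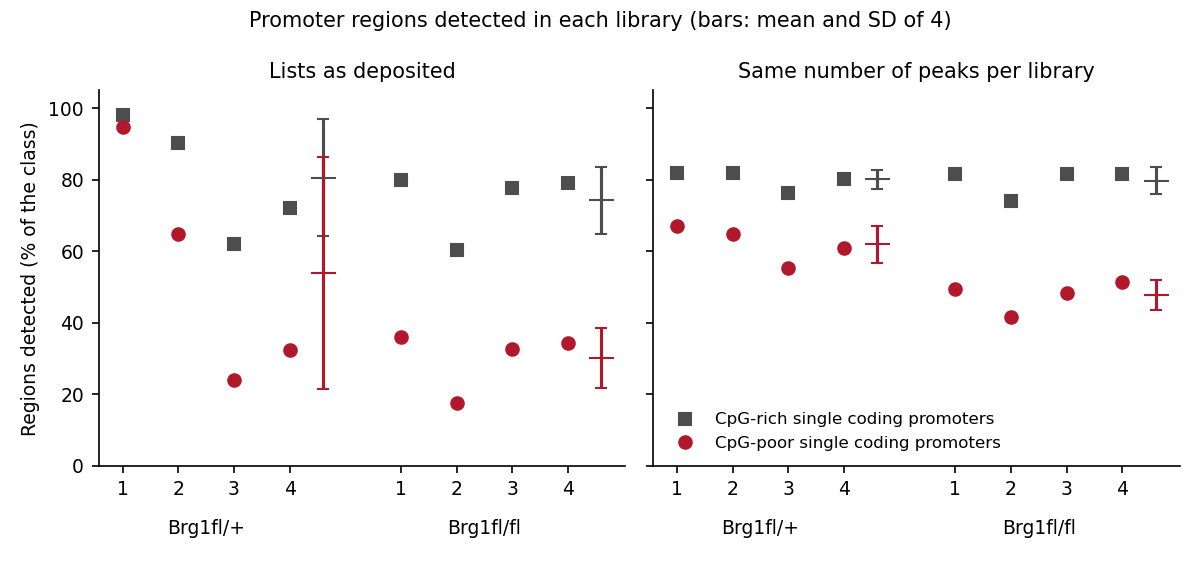
Share of promoter regions with a peak (y axis, % of the class) in each of the 8 libraries (x axis, numbered within genotype), in the lists as deposited (left) and with 6271 peaks per library (right). Red circles are CpG-poor and grey squares CpG-rich promoters, and the bars beside each genotype give the mean and SD of its 4 libraries. With equal lists the CpG-poor share lies at 55.2% to 67.0% in Brg1fl/+ and 41.7% to 51.3% in Brg1fl/fl.

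To compare promoters of roughly similar peak strength, they were sorted into bands by their fold in Brg1fl/+ library 1, which was then left out. These bands were chosen after the data had been seen and sort promoters by a Brg1fl/+ library, so their values are a description with no test. Among 416 CpG-poor and 1666 CpG-rich promoters of 8 to 12 fold, the gap was 11.8 points wider in Brg1fl/fl. Among weaker promoters of 4 to 8 fold it was 6.10 points wider, and among those of 12 fold or more 8.92 points wider. In both of these bands, unlike that of 8 to 12 fold, the libraries of the genotypes overlapped.

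Counted promoter by promoter, 1053 of 1445 (72.9%) had a peak in fewer Brg1fl/fl than Brg1fl/+ libraries, 100 (6.92%) in more, and 292 in equal numbers. Over all 16566 regions the shares were 47.2% and 16.7%. Of the 1445, 417 were regions through a peak in Brg1fl/+ library 1 alone and so count as fewer by definition. The shares were not taken for CpG-rich promoters, so these counts are a description only. With equal lists, 307 of 612 (50.2%) had a peak in fewer Brg1fl/fl libraries and 113 (18.5%) in more, against 23.2% and 24.8% of all 9006 regions.

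Within the group, detection fell with CpG content in both genotypes. The 427 promoters with a CpG ratio under 0.4 were detected at 43.1% ± 36.8 in Brg1fl/+ and 14.1% ± 3.72 in Brg1fl/fl, and the other CpG-poor promoters at 58.6% ± 30.6 and 36.9% ± 10.4 (SD, n = 4 each). The distance between these groups was -4.60, -19.01, -19.4 and -18.8 points in Brg1fl/+ and -27.7, -12.8, -25.3 and -25.3 in Brg1fl/fl. Library 2 of Brg1fl/fl, the shortest list, lay among the Brg1fl/+ values, and the difference of -7.36 points was not larger than the spread (two-sided exact permutation test, p = 0.229). It was -10.8 points without that library (p = 0.0286, exact permutation test). With any other library left out it was -9.79 to -6.17 points (p = 0.114 to 0.343, same exact permutation test). Both groups consist of regions that the lists themselves define, so these p-values are no support by themselves. Promoters poor in both GC and CpG were detected at 41.4% in Brg1fl/+ and 13.3% in Brg1fl/fl, those poor in CpG only at 56.4% and 33.4%, and those poor in GC only at 64.2% and 43.0%. By position, the 1251 regions centred within 200 bp of the start site were detected at 54.7% and 30.3%, and the 194 farther ones at 49.9% and 29.3%.

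At equal thresholds, 2 CpG-poor promoters had a peak in all 4 Brg1fl/+ and in 0 Brg1fl/fl libraries (0.404% of all regions did), namely Nfe2l1 and Batf. The reverse pattern was found at 0 of them (0.169% of all regions). Nfe2l1, a membrane-bound transcription factor that raises proteasome genes, lay at chr11:96823791-96824391 with a GC content of 66% and a CpG ratio of 0.347. Its fold over background was 9.49, 10.8, 7.53 and 8.95 in Brg1fl/+, and no peak was called in any Brg1fl/fl library. Batf, an AP-1 family factor needed for class switching, lay at chr12:85686412-85686881 with a GC content of 54.3% and a CpG ratio of 0.366, and stood at 6.31, 8.80, 9.49 and 6.73 fold in Brg1fl/+. No Brg1fl/fl fold exists at either promoter to compare, and a detection pattern chosen for being complete carries no test. With equal lists Nfe2l1 kept its peaks in 4 Brg1fl/+ and 0 Brg1fl/fl libraries, while Batf was left with 1 and 0.

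A larger set came close to this pattern. At 21 CpG-poor promoters all 4 Brg1fl/+ libraries and 1 Brg1fl/fl library had a peak, and at 1, that of the zinc finger gene Zfp260, the counts were reversed. The same counts were not taken over all regions, so these are a description only. Over all regions, 47.2% had a peak in fewer Brg1fl/fl than Brg1fl/+ libraries and 16.7% in more. The named ones among the 21 were chosen after their values were seen. Prkcd, encoding protein kinase C delta, a restraint on B cell expansion, stood at 12.2, 13.7, 11.2 and 9.21 fold in Brg1fl/+ and at 5.79 in Brg1fl/fl library 4 alone. Fas, the death receptor of activated B cells, stood at 10.8, 9.91, 7.15 and 10.7 fold and at 4.78 in Brg1fl/fl library 3 alone. Smarca2, the gene of Brm, which is the alternative ATPase of SWI/SNF, stood at 8.17, 9.05, 7.93 and 6.58 fold and at 5.85 in Brg1fl/fl library 4 alone. In each case the lone Brg1fl/fl peak was lower than every Brg1fl/+ peak. The same held for Ly86 (MD-1, the partner of CD180), at 7.12 to 10.2 fold against 5.98, and for Bst2 (tetherin), at 6.65 to 9.16 against 4.53. Mef2c, a transcription factor of B cell proliferation, was an exception, with 11.7, 12.7, 6.49 and 7.995 fold in Brg1fl/+ and 7.71 in Brg1fl/fl library 4. Choosing promoters that mostly lacked Brg1fl/fl peaks favours low ones among the peaks that remain, so their height adds no support.

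With equal lists, 12 CpG-poor promoters had a peak in all 4 Brg1fl/+ and in 0 Brg1fl/fl libraries (0.577% of all regions) and 1 had the reverse (0.255% of all regions). Besides Nfe2l1, Fas and Prkcd, those named here, which were singled out after their values were seen, were Babam1, a subunit of the BRCA1-A complex, Cnp, Gm8369, the lysosomal acid lipase gene Lipa, Lrrc32, which encodes the TGF-beta docking receptor GARP, Ly75, which encodes the endocytic receptor DEC-205, the small GTPase gene Rrad and the homeobox gene Six5. All 8 of these had a peak in 1 to 3 Brg1fl/fl libraries before the lists were shortened, as at Lipa, with 15.1, 11.3, 11.7 and 10.8 fold in Brg1fl/+ and 6.11 and 6.77 in Brg1fl/fl libraries 1 and 4. The reverse was AW822073, whose peaks of 3.12 to 4.35 fold in both genotypes were weak.

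At promoters with a peak in all 8 libraries, the height of the peak could be compared. Each library was centred on its median log2 fold over the 4593 regions shared by all 8, and limma was fitted to all of these. The 158 shared CpG-poor promoters had a median log2 difference (Brg1fl/fl minus Brg1fl/+) of -0.10, against 0.02 at the 2828 shared CpG-rich promoters and 0.03 over all shared regions, and 102 of the 158 (64.6%) were below 0, against 44.5% of all. In 9 (5.70%) the peak was lower in Brg1fl/fl at an adjusted p under 0.05 (2.16% of all shared regions) and in 1 (0.633%) higher (3.31% of all). At CpG-rich promoters 65 (2.30%) were lower and 79 (2.79%) higher. The number lower was 3 without Brg1fl/+ library 2, 18 without Brg1fl/fl library 2 and 3 with libraries 1 and 2 and libraries 3 and 4 averaged.

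Library by library, the median log2 fold of shared CpG-poor minus shared CpG-rich promoters was -0.07, -0.10, -0.15 and -0.11 in Brg1fl/+ and -0.18, -0.24, -0.22 and -0.20 in Brg1fl/fl. The groups did not overlap, and the difference of -0.10 was larger than the spread (-0.11 ± 0.04 against -0.21 ± 0.03, SD, n = 4 each, two-sided exact permutation test, p = 0.0286). Over libraries left out it ranged from -0.16, without Brg1fl/+ library 3, to -0.091, without Brg1fl/+ library 1. A split of the shared CpG-poor promoters by GC content went the other way. The 26 shared CpG-poor promoters with GC under 50% stood 0.06 below the other 132 in Brg1fl/+ (-0.06 ± 0.09) and 0.11 above them in Brg1fl/fl (0.11 ± 0.01), a difference of 0.16 (exact permutation test, n = 4 each, p = 0.0286). At shared regions outside promoters, 123 of low and 805 of higher GC, the same difference was 0.06 (p = 0.371, same exact permutation test). By the rule, the 132 all had a CpG ratio under 0.6, which the 26 did not need to have. The split of the CpG-poor promoters therefore does not separate GC content from CpG ratio.

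The strongest drop was at Msrb1, a selenoprotein that repairs oxidised methionine (chr17:24736245-24736856). Its fold was 15.2, 14.1, 8.73 and 12.4 in Brg1fl/+ and 4.95, 7.97, 7.09 and 5.75 in Brg1fl/fl, with no overlap, and the log2 difference was -0.76 ± 0.17 (SE, adjusted p = 0.00675, limma). Slc8b1, the mitochondrial sodium/calcium exchanger (chr5:120510907-120511453), fell from 16.7, 12.9, 13.7 and 15.1 fold to 9.53, 5.90, 10.1 and 9.02 (log2 difference -0.58 ± 0.13, adjusted p = 0.00870, limma). These were the 2 whose call held with each library left out in turn, though that of Slc8b1 was lost on fragments recovered at the summit (-0.44, adjusted p = 0.0826, limma). Paox, which oxidises acetylated polyamines, fell from 10.1 to 15.6 fold in Brg1fl/+ to 6.64 to 8.06 in Brg1fl/fl (-0.59 ± 0.14, adjusted p = 0.0119, limma), a call lost without Brg1fl/+ library 2 (adjusted p = 0.0646).

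The other 6 had smaller differences. Stard9, a mitotic kinesin gene and the highest peak of the 9, stood at 19.4, 18.4, 17.5 and 17.1 fold against 13.2, 10.3, 13.8 and 10.9 (-0.39 ± 0.10, adjusted p = 0.0220, limma). Aars, which charges transfer RNA with alanine, stood at 13.6, 12.1, 12.2 and 12.3 fold against 7.998, 6.56, 8.30 and 8.98 (-0.46 ± 0.13, adjusted p = 0.0352, limma). In both the Brg1fl/fl libraries were all below the Brg1fl/+ libraries, as they were at Ccndbp1 (-0.56), Tmem218 (-0.53), the SAGA subunit gene Taf6l (-0.44) and Pnkd (-0.40). These calls were closer to the threshold. They were lost without Brg1fl/+ library 3 or Brg1fl/fl library 4 for Stard9, Brg1fl/+ library 2 or Brg1fl/fl library 1 for Ccndbp1, Brg1fl/+ library 2 or Brg1fl/fl library 4 for Pnkd and any of Brg1fl/+ libraries 1 and 2 and Brg1fl/fl libraries 2 and 3 for Tmem218, while with 1 library left out Aars was called only without Brg1fl/fl library 4 and Taf6l only without Brg1fl/fl library 2. The single promoter called higher was mt-Co1 on mitochondrial DNA (0.40 ± 0.12, adjusted p = 0.0344, limma), with folds of 1.54 to 1.77 in Brg1fl/+ and 1.83 to 1.96 in Brg1fl/fl, so 0 nuclear CpG-poor promoters were called higher. At an unadjusted p under 0.05, limma had 26 of the 158 lower and 7 higher. That count was not taken over all shared regions, so it is a description only.

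**Figure D3:**
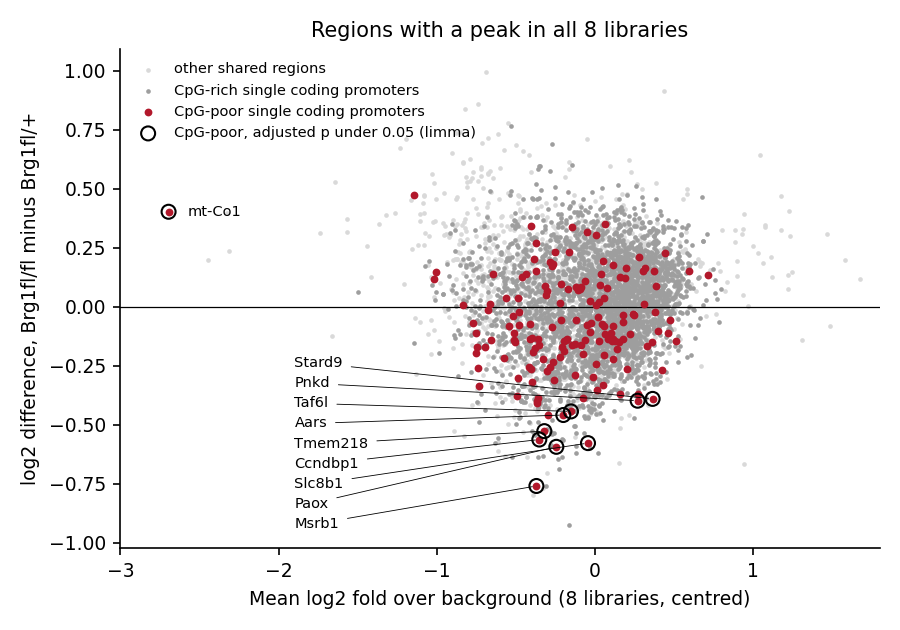
Each point is 1 of the 4593 regions with a peak in all 8 libraries, placed by its mean log2 fold over background after centring (x axis) and its log2 difference, Brg1fl/fl minus Brg1fl/+ (y axis). Red points are the 158 CpG-poor promoters, dark grey the CpG-rich ones and light grey all others, and rings mark the 10 CpG-poor promoters with an adjusted p under 0.05 by limma, 9 of them below 0.

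The genes behind the promoters were then looked up in lists. Of 191 genes in 8 lists of B cell, antigen presentation, activation, cytokine, Toll-like receptor, interferon and plasma cell genes, 68 CpG-poor and 42 CpG-rich promoters were found. Of the 68, 47 had a peak in fewer Brg1fl/fl than Brg1fl/+ libraries, 6 in more and 15 in equal numbers, against fewer at 72.9% of all CpG-poor promoters and 47.2% of all regions. These are the shares against which the counts of each list below are to be read. Of the 1445 CpG-poor promoters, 754 had no peak in Brg1fl/fl, and 417 had a peak in Brg1fl/+ library 1 alone. Promoters with no peak in Brg1fl/fl were not counted over all regions. On average 2.03 Brg1fl/+ and 1.07 Brg1fl/fl libraries had a peak, beside 2.16 and 1.21 over all CpG-poor promoters. Some lists were mostly CpG-rich: the 26 CpG-rich promoters of the cell cycle list faced 2 CpG-poor ones (Cdk1 and Ccnd2), and the 48 of cytosolic ribosomal proteins faced 2 (Rpl41 and Rps4x). With equal lists 24 promoters of immune genes were left, 11 of them (45.8%) with fewer Brg1fl/fl libraries and 6 (25%) with more, against 50.2% and 18.5% of the 612 CpG-poor promoters and 23.2% and 24.8% of all regions.

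B cell surface genes gave 11 CpG-poor and 2 CpG-rich promoters. Of the 11, 8 had a peak in fewer Brg1fl/fl libraries, near the 72.9% of all CpG-poor promoters, and 7 had none in Brg1fl/fl, among them Cd79a, which carries the signal of the B cell receptor (5.05 fold in Brg1fl/+ library 1 alone), Cr2, the complement receptor CD21 (10.3 in library 1 alone), and the tetraspanin gene Cd53 (9.94 in library 1 alone). Fcer2a had a peak in Brg1fl/+ libraries 1 and 4 (6.45 and 4.82 fold) and in no Brg1fl/fl library, and reads from the CD23 promoter of the Cre transgene could not be told apart from those of the gene. Ms4a1, the gene of CD20, was open in all 8, at 9.27, 7.95, 6.79 and 7.11 fold against 9.39, 4.37, 5.23 and 9.09, with overlap and a log2 difference of -0.01 ± 0.18 (adjusted p = 0.974, limma). The tetraspanin gene Cd37 had peaks of 4.16 to 5.69 fold in 3 Brg1fl/+ and all 4 Brg1fl/fl libraries.

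Of the B cell transcription factor list, 7 promoters were CpG-poor and 14 CpG-rich. Runx1 had peaks in 3 Brg1fl/+ libraries (8.79, 6.07 and 5.71 fold in libraries 1, 2 and 4) and in 0 Brg1fl/fl libraries. Irf4, which drives plasma cell and germinal centre fates, had 6.66 and 8.27 fold in Brg1fl/+ libraries 1 and 2 and 5.26 and 5.29 in Brg1fl/fl libraries 1 and 3. Pou2af1, the OCA-B coactivator, had a peak in 3 Brg1fl/+ libraries (5.19 to 7.21 fold) and in all 4 Brg1fl/fl libraries (4.49 to 5.88), so it did not share the direction of Runx1 and Batf. Spi1 and Spib, which encode the ETS factors PU.1 and Spi-B, had 1 peak each, both in Brg1fl/+, and the single peak of Pou2f2 was in Brg1fl/fl library 1.

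Antigen presentation gave 11 CpG-poor promoters of 10 genes, 7 with fewer Brg1fl/fl libraries (72.9% of all CpG-poor promoters). The most open were H2-DMa, which helps load peptide onto class II molecules, at 13.1, 15.3, 9.21 and 10.8 fold against 8.57, 12.7, 10.6 and 10.5 (log2 difference 0.02 ± 0.14, adjusted p = 0.942, limma), and Cd74, the invariant chain, at 8.92, 12.2, 9.14 and 10.0 against 8.26, 6.43, 8.74 and 8.42 (-0.14 ± 0.15, adjusted p = 0.616, limma). At both promoters the genotypes overlapped. H2-Aa, a class II alpha chain gene, had 8.28 and 8.79 fold in Brg1fl/+ libraries 1 and 2 and 5.54 in Brg1fl/fl library 4, while H2-Ab1, its partner, had a single peak, in Brg1fl/fl library 4. The promoter of H2-DMb2 had 7.76, 9.50, 4.31 and 6.55 fold against 4.82 and 3.73 in Brg1fl/fl libraries 1 and 2. That gene and H2-DMb1 are near-identical copies, so their reads may be split between them.

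Activation genes gave 9 CpG-poor and 0 CpG-rich promoters, of which 6 had fewer Brg1fl/fl libraries and 0 had more (72.9% and 6.92% of all CpG-poor promoters). Cd40 was open in all 8, at 9.005, 6.58, 5.33 and 6.97 fold against 6.07, 5.63, 6.29 and 5.94, with overlap (log2 difference 0.01 ± 0.16, adjusted p = 0.985, limma). Tnfrsf1b, which encodes TNF receptor 2, had 7.83, 6.67 and 7.46 fold in Brg1fl/+ libraries 1, 2 and 4 and 4.53 and 3.99 in Brg1fl/fl libraries 3 and 4. Il2ra, the IL-2 receptor alpha chain, had peaks in Brg1fl/+ libraries 1 and 2 only (4.58 and 6.06 fold), whereas Cd69 and the adhesion molecule gene Icam1 had peaks in equal numbers of both genotypes.

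Of the cytokine and homing list, 7 promoters were CpG-poor. Cxcr5, the receptor that guides B cells into follicles, was open in all 8, at 7.88, 8.85, 5.65 and 9.002 fold against 7.205, 5.66, 7.76 and 6.56, with overlap (log2 difference 0.01 ± 0.16, adjusted p = 0.977, limma), and so was the integrin gene Itga4 (4.84 to 7.04 against 5.10 to 6.10). The receptor genes Il21r and Il2rg had peaks in 3 and 2 Brg1fl/+ libraries and in 0 Brg1fl/fl libraries, those of Il2rg at 7.39 and 10.9 fold. Toll-like receptor genes split. Tlr4, the LPS receptor, had 8.65, 8.46 and 5.19 fold in Brg1fl/+ libraries 1, 2 and 4 and no peak in Brg1fl/fl, and Tlr9, which senses CpG DNA, had 8.60, 8.36 and 5.94 in the same libraries and 4.80 in Brg1fl/fl library 4. Cd180, a Toll-like surface receptor that modulates the LPS response, had more peaks in Brg1fl/fl, with 5.38, 3.74 and 8.26 fold in libraries 1, 3 and 4 and 6.20 in Brg1fl/+ library 1.

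Interferon response was the list with most CpG-poor promoters, 18 of 30 genes against 2 CpG-rich ones. Of the 18, 15 had a peak in fewer Brg1fl/fl libraries, 1 (Ifih1, an RNA sensor) in more and 2 in equal numbers, and 10 had none in Brg1fl/fl, beside fewer at 72.9% and none at 754 of the 1445 CpG-poor promoters. Most rested on 1 or 2 of the longest lists, as Ifi27l2a did with 10.5 and 11.9 fold in Brg1fl/+ libraries 1 and 2, Mx1 with 6.90 in library 1 and Usp18 with 11.2 in library 1. Among the exceptions were the transcription factor gene Irf9, open in all 8 at 13.4, 13.998, 9.71 and 9.11 fold against 9.21, 9.01, 7.45 and 10.3 (log2 difference -0.14 ± 0.14, adjusted p = 0.576, limma), and Gbp4, with 6.57 to 9.11 fold in 4 Brg1fl/+ and 4.93 to 6.09 in 3 Brg1fl/fl libraries. Bst2, given above, had peaks in 4 Brg1fl/+ libraries and 1 Brg1fl/fl library. Irf7, the amplifier of type I interferon, had 6.52, 5.65 and 5.22 fold in Brg1fl/+ libraries 1, 2 and 3 and 3.69 in Brg1fl/fl library 4. With equal lists 6 promoters of the list were left, of which 4 had fewer Brg1fl/fl libraries and 2 equal numbers (fewer at 50.2% of the 612 CpG-poor promoters). Guanylate-binding protein genes form a family of close copies, so their values are uncertain where reads could be split.

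The remaining lists were short. Sec11c, a signal peptidase subunit and the only CpG-poor promoter of the plasma cell list, was open in all 8, at 8.97 to 10.5 fold against 8.45 to 10.5. Cdk1, the mitotic kinase, had 9.07 and 7.86 fold in Brg1fl/+ libraries 1 and 2 and 5.19 and 4.34 in Brg1fl/fl libraries 1 and 4. Among 7 histone promoters, 5 had fewer Brg1fl/fl libraries and 0 more (72.9% and 6.92% of all CpG-poor promoters), and these are copies of one another, so reads may be split. Rpl41 had 8.84 to 9.77 fold in all Brg1fl/+ libraries and 5.92 to 6.92 in 3 of Brg1fl/fl. Of 40 marker genes of T cells, NK cells, myeloid cells, erythroid cells and platelets, 0 had a CpG-poor promoter with a peak.

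**Figure D4:**
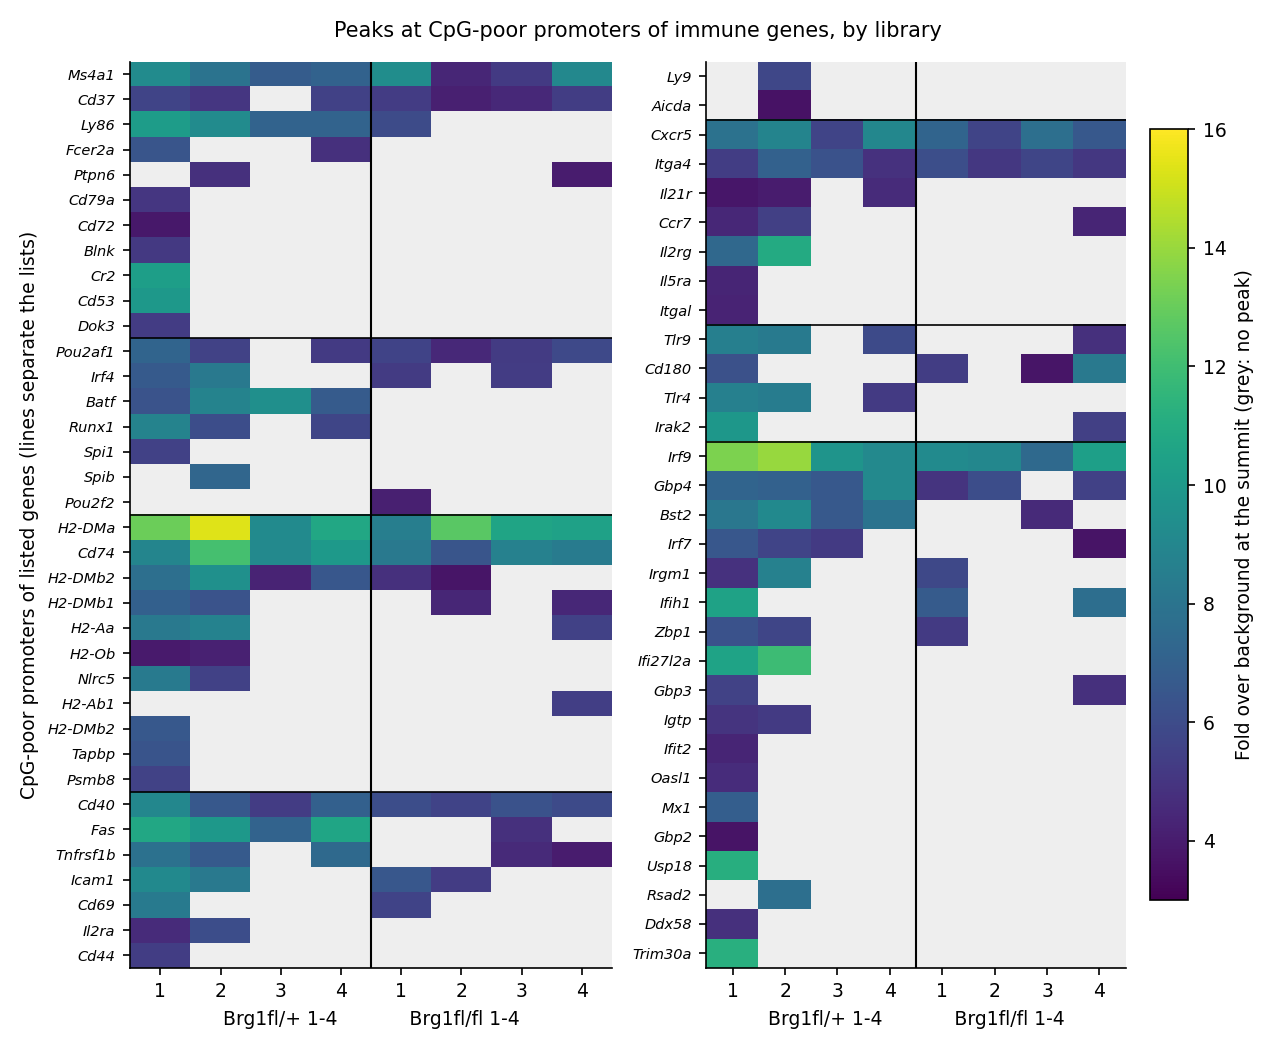
Rows are CpG-poor promoters of the immune lists, in blocks for B cell surface, B cell transcription factors, antigen presentation, activation (left), and the end of activation, cytokines and homing, Toll-like receptors and interferon response (right). Columns are the 8 libraries, colour is the fold over background at the summit, and grey means no peak. Peaks thin out from Brg1fl/+ libraries 1 and 2 to the other 6, with a few rows such as Cd40, Cxcr5, H2-DMa, Cd74 and Irf9 filled throughout.

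Median heights pointed the same way for both classes. Over the promoters detected in a library, the median fold at CpG-poor ones was 8.52 ± 0.51 in Brg1fl/+ and 7.04 ± 0.09 in Brg1fl/fl, and at CpG-rich ones 11.3 ± 0.81 and 9.58 ± 0.40 (SD, n = 4 each, two-sided exact permutation test, p = 0.0286 for each). Different promoters enter these medians in each library. Over the promoters with a peak in all 8 libraries, the genotypes overlapped in both classes. There the median log2 fold was 3.56 ± 0.20 in Brg1fl/+ and 3.25 ± 0.16 in Brg1fl/fl at CpG-poor promoters. At CpG-rich ones it was 3.66 ± 0.17 and 3.46 ± 0.14 (p = 0.114 for each class, same exact permutation test). The peaks at CpG-poor promoters had a median width of 329 bp ± 53.8 in Brg1fl/+ and 365 bp ± 22.98 in Brg1fl/fl (p = 0.257, same exact permutation test).

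Short motifs were searched on both strands within 100 bp of the summit, as a description with no test. The classes differ in GC and CpG content by rule, which bears on how often any short motif is found, with or without CpG. Against CpG-rich promoters, CpG-poor ones held the ISRE most in excess (3.94% against 0.912%, 2.29% of all regions), though not among promoters with a peak in all 8 libraries (0.633%, 1 of 158, against 0.955%), then the AP-1 motif TGANTCA (3.94% against 1.66%, 4.84% of all) and the RUNX motif TGTGGT (12.4% against 5.74%, 11.4% of all). The PU.1 motif GAGGAAG, which contains the ETS core GGAA, was in 13.6% against 8.28% (9.69% of all), and the octamer ATGCAAAT in 1.66% against 0.894% (1.97% of all). The TATA box TATAAA was in 3.11% against 1.91% (3.66% of all). It stood 20 to 40 bp upstream of the start site at only 11 CpG-poor promoters (0.761%), against 34 CpG-rich ones (0.608%). Among the 11 were Fcer2a, Cd69, Icam1, Id1, Tubb2a and Tsc22d3, the last with peaks in 3 Brg1fl/+ and 0 Brg1fl/fl libraries.

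Motifs with CpG in them were scarcer, a difference that the sequence rule itself favours. The GC box GGGCGG was in 50.2% of CpG-poor and 75.5% of CpG-rich promoters (47.9% of all), the E2F motif TTCCCGC in 4.36% and 8.06% (4.91% of all) and the motif of nuclear respiratory factor 1, which is not Nfe2l1, in 1.04% and 2.72% (1.52% of all). CCAAT (36.3% and 33.7%, 28.4% of all) and NF-kB motifs (9.76% and 8.44%, 10.2% of all) differed little. Promoters with an ISRE had a peak in 2.04 Brg1fl/+ and 0.982 Brg1fl/fl libraries on average and those with the cyclic AMP response element TGACGTCA in 2.65 and 1.78, beside 2.16 and 1.21 for all CpG-poor promoters.

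**Figure D5:**
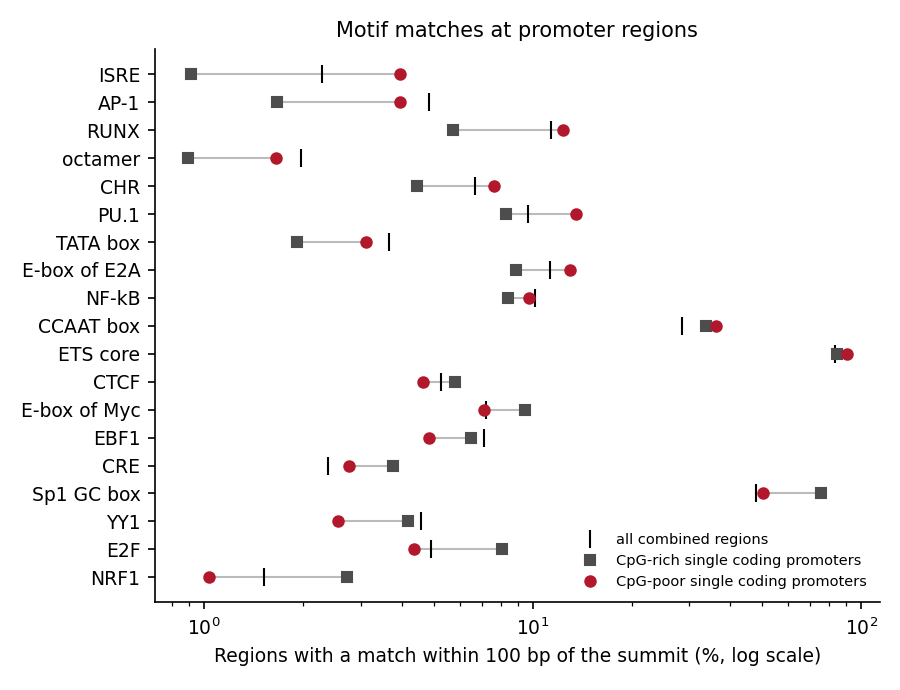
Share of regions with a match to each motif within 100 bp of the summit (x axis, %, log scale), ordered by the ratio of CpG-poor (red circles) to CpG-rich single coding promoters (grey squares), with all combined regions as black ticks. The ISRE heads the order at 3.94% against 0.912%, and the motif of nuclear respiratory factor 1 closes it at 1.04% against 2.72%.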

How the data were processed

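ATAC-seq was measured in 8 libraries of activated splenic B cells, grouped by the genotype in their titles. Per the methods and processing notes, Bowtie2 placed the reads on mm10 and MACS2 found the peaks, which the authors ran separately for every library (versions and options are not given in the sources used here). For each peak the authors deposited its summit's fold over the local background (a linear ratio), the −log10 p-value and the −log10 q-value, and the position of the summit in bp. No deposited peak had a −log10 q below 1.31. The 8 RNA-seq libraries of the series and the authors' coverage comparison are not analysed here.

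From these lists regions were joined and assigned to GENCODE start sites, and sequences were read from GRCm38 (the build mm10), with pysam 0.24.0 and pandas 2.3.3 in Python 3.11.15. All 72301 peaks on named chromosomes lay within GRCm38 chromosome lengths. A region was detected in a library when a peak overlapped it by at least 1 bp. Single values per library were compared by two-sided exact permutation tests over all 70 assignments (scipy 1.17.1), and the log2 fold of the best peak at the 4593 regions shared by all libraries by limma 3.58.1 in R 4.3.3 after centring on each library's median, with Benjamini-Hochberg adjustment over all of them. The fit was tested on simulated data. Counts over regions carry no test, and no error of counting can be given because the files hold no read totals.

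The promoters, gene lists and tests were chosen with earlier results of these data known, and the lists give no independent support. Genes named are those called by limma, those with peaks in all libraries of 1 genotype and none of the other, the 10 with the best worst rank by q, those next to a threshold, and up to 8 a list in a set order. Others are said to be chosen after their values were seen. Symbols beginning with Rps6k (kinases) were not counted as ribosomal proteins. Alternatives changed the q threshold, list length, overlap, sequence rule, start sites, repeats, chromosomes, centring, scale, replicate block and libraries left out. Of the genes and promoter sequences chosen for the text, 1 gene and 1 sequence are left out and not reported here.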

Additional observations from a re-analysis of the deposited data

Results flagged for a closer look

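Of 36 groups of 4 libraries tested over 18 quantities, 8 held a library whose gap to the nearest other exceeded Dixon's critical value for 4 samples, and chance alone gives about 1 in 20. Brg1fl/fl library 2, the shortest list, accounted for 6 of them. It detected 60.3% of CpG-rich promoters, against 77.8% to 80.0% in the other 3 libraries of its genotype, and with equal lists 74.2% against 81.5% to 81.8%. Its median log2 fold at shared CpG-rich promoters was 3.25, against 3.51 to 3.53. CpG-poor promoters made up 4.13% of its peaks, against 5.58% to 5.82%, their peaks had a median width of 331 bp, against 373 to 379 bp, and the detected share of promoters with a CpG ratio under 0.4 stood 12.8 points below that of the other CpG-poor promoters (-12.8, against -27.7 to -25.3). Brg1fl/+ library 1, the longest list, stood apart on that last quantity in its own genotype, at -4.60 against -19.4 to -18.8. The shortest peak of Brg1fl/fl library 1 was 243 bp, against 231 to 233 bp.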

How the results depend on the processing

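Depth is unknown, detection depends on list length, and 4 against 4 libraries cannot give p under 0.0286. The number of CpG-poor promoters was 1445, and 916 at a −log10 q of at least 10, 612 with equal lists, 288 with both criteria and 427 with a CpG ratio under 0.4. The difference in detection, -23.9 points, was -14.3 with equal lists (p = 0.0286, exact permutation, over regions those lists define) and -34.0 to -14.2 with a library left out. The gap to CpG-rich promoters was -17.5 points, over regions that the lists themselves define. It kept its direction in all 22 alternatives, though the replicate block and averaging in pairs cannot change its value. It missed the threshold at -21.7 with both criteria and -22.7 with a CpG ratio under 0.4 (both p = 0.0857, exact permutation), and without any 1 Brg1fl/fl library, with a range of -21.9 to -13.5 over libraries left out. In fold bands chosen after seeing the data it was -6.10 and -8.92, a description only. The distance between CpG ratios under and above 0.4 ranged from -10.8 to -6.17. Promoters with peaks only in all Brg1fl/+ libraries numbered 2, and 8 when −log10 q had to reach 5, 7 when it had to reach 10, 12 with equal lists, 1 with 50% of a region covered, 0 with both criteria, 1 with 1 start site a gene and 2 to 31 with a library left out (31 without Brg1fl/+ library 3). The reverse numbered 0, and 1 when −log10 q had to reach 5 and with equal lists, and 0 to 1 with a library left out. The difference in log2 height, -0.10, was reversed with both criteria (0.060, p = 0.514, exact permutation). It was -0.087 at a −log10 q of at least 10 (p = 0.114), -0.16 with a CpG ratio under 0.4 and -0.078 with 1 start site a gene (both p = 0.0571, exact permutation), and -0.16 to -0.091 with a library left out. The share of each list, -2.06 points, was -1.40 with equal lists and -2.69 to -1.38 with a library left out.

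Promoters lower by limma numbered 9, and 3 with libraries averaged in pairs (1 with 2, 3 with 4, as the names of the deposited lists group them), 14 on recovered fragments, 0 with both criteria, 0 with a CpG ratio under 0.4, 5 with 1 start site a gene, and 3 to 18 with a library left out. Those higher numbered 1 (mt-Co1), and 0 with libraries averaged, with quantile normalization, on chromosomes 1 to 19 and X or with a CpG ratio under 0.4, 6 on recovered fragments and 0 to 3 with a library left out. The causes were not tested.

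Replicate numbers did not pair the libraries: same-numbered deviations correlated at 0.01, -0.09, -0.04 and -0.05. With the number as a replicate block, the gap of -17.5 points and the log2 difference of -0.10 each had p = 0.125, the smallest that 4 pairs allow (exact permutation), and limma called 11 promoters lower and 0 higher. With libraries averaged in pairs, -17.5 and -0.10 each had p = 0.333 by exact permutation, the smallest possible there.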
